A study of Mus musculus with 3 samples.

Results

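The 37 genes described here encode the chains of integrins and laminins: 18 integrin alpha chains, 8 integrin beta chains and 11 laminin chains. They are the rows of both deposited count tables whose symbols carry the integrin (Itga, Itgb) or laminin (Lama, Lamb, Lamc) stem, and they are 37 of the 21507 genes that the tables share. They took 0.287% of all transcript counts in the library of dissociated cells and 0.311% and 0.317% in the 2 libraries of nuclei.

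An integrin is a receptor made of 1 alpha and 1 beta chain, both of which span the membrane, and the pair decides what it binds: collagens, laminins, fibronectin and other proteins read through an arginine-glycine-aspartate motif, or counter-receptors on other cells. Itgb1 joins the most alpha chains, Itgb2 and Itgb7 are the beta chains of leukocytes, and Itgav is the alpha chain shared by several beta chains, including Itgb6 and Itgb8, which are known for releasing TGF-beta from its latent form. A laminin is a cross-shaped trimer of 1 alpha, 1 beta and 1 gamma chain that is secreted into the basement membrane. In the lung the basement membrane lies between the alveolar epithelium and the capillaries and around smooth muscle, pericytes and mesothelium.

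All samples were lung of wild type C57Bl/6J mice, profiled with 10x Chromium 3' v3 droplets, and the study compared cells with nuclei as starting material. The cells (1 library) came from fresh lung, dispersed with collagenase, DNAse and mechanical force and cleaned over a density gradient. The nuclei (2 libraries, nuclei 1 and nuclei 2) came from snap-frozen lung of adults, freed in a lysis buffer and filtered. Fresh against frozen tissue and cell against nucleus therefore cannot be told apart, and the labels do not name separate animals, so a p-value speaks only for the scatter among these libraries, and that scatter may be technical. There is 1 library of cells, so the spread seen for a gene comes from the 2 nucleus libraries, with 1 residual degree of freedom. The test used (edgeR) pools this spread with that of all genes in the same fit. Its p-values and SEs therefore do not rest on that 1 degree of freedom alone.

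After filtering, 11934 cells and 6760 and 9806 nuclei remained, with 27139660 to 35948686 transcript counts (UMIs) per library and medians of 2520 to 4152 per barcode. Between 21 and 24 barcodes were shared by each pair of libraries. Classes were set by markers that include no integrin or laminin, and 16 classes had at least 50 barcodes in every library: AT1, AT2 and ciliated epithelium, mesothelium, 4 kinds of stromal cell (alveolar and adventitial fibroblasts, pericytes, and smooth muscle with myofibroblasts), 3 kinds of endothelium (general capillary, aerocyte capillary, venous) and 5 classes of leukocyte (alveolar and interstitial macrophages, dendritic cells, B cells, and T, NK and ILC2 cells). Leukocytes made up 52.1% of the cells but 14.2% and 17.6% of the nuclei, and epithelium 6.57% of the cells but 28.1% and 43.6% of the nuclei. In the nuclei, AT2, alveolar fibroblasts and general capillary cells each split into clusters held almost wholly by 1 library (1333 of the 1346 AT2 nuclei of nuclei 1 in 1 cluster, 1576 of the 1612 of nuclei 2 in another), so the nucleus libraries stand apart within these classes. The dendritic class of the cells also holds 74 plasmacytoid and 68 Ccr7 cells, kinds that formed no named cluster in the nuclei. The Xcr1 cluster of the class was 226 of 695 cells but 77 of 125 and 102 of 169 nuclei. Adventitial fibroblasts had 53 and 50 nuclei, near the minimum of 50. Clusters of 391 and 159 further nuclei had their best marker score for adventitial fibroblasts but stayed unnamed.

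Levels by class are CPM, the UMIs of a gene divided by all UMIs of the class and scaled to the same total in every class, and where 3 are given together they are those of the cells, nuclei 1 and nuclei 2, in that order. Classes come from the same libraries, so differences between classes are descriptions with no test, and levels are compared within a gene, not between genes. Of the 37 genes, 33 reached a mean of 50 CPM in their leading class. The other 4 (Itga2b, Itga7, Itga10 and Itgad) led at means of 8.29 to 39.7 CPM.

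The alpha chains that pair with Itgb1 were highest in different classes. Itga1, the chain of a collagen receptor, was highest in pericytes (1829, 2216 and 1697 CPM) and general capillary cells (1574, 1606 and 1698 CPM). Venous cells followed at 1062, 1014 and 1130.5 CPM, and in these 3 classes the cells and the nuclei were at like levels. Itga2, the chain of another collagen receptor, stood at 217, 211 and 286 CPM in aerocytes and 235, 172 and 249 CPM in general capillary cells, with overlapping ranges. Among lymphocytes it was in the NK clusters, at 339 and 94.7 CPM in the 2 clusters of the cells and 489 and 254 CPM in that of nuclei 1 and nuclei 2, and Itga2 is the chain recognised by an antibody long used to stain mouse NK cells. Itga11, a collagen-binding chain best known from fibroblasts, was at 39.2, 32.8 and 38.4 CPM in adventitial fibroblasts but led in ciliated cells, at 94.5, 447 and 663 CPM. Itga10, the chain of a cartilage collagen receptor, reached 9.88, 8.93 and 21.6 CPM in smooth muscle and myofibroblasts, its highest class.

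Of the laminin-binding alpha chains, Itga6 and Itga3 stood high in endothelium, and Itga3 also in AT1 epithelium. Itga6, which can pair with Itgb1 or Itgb4, stood at 596, 444 and 401 CPM in general capillary cells and 444, 342 and 299 CPM in venous cells, with 473 and 509 CPM in the arterial nuclei. Itga3 was highest in aerocytes (259, 319 and 249 CPM) and AT1 cells (191, 169 and 186 CPM), the capillary and epithelial cells that face each other across the thin part of the alveolar wall. The next class, mesothelium, was at 64.4, 105 and 95.7 CPM, under the range of both. Itga7, a laminin receptor chain of muscle, was at 7.905, 33.5 and 16.2 CPM in smooth muscle and myofibroblasts. That was not its leading class, which was another at a mean of 24.5 CPM.

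Itga8 and Itga9 each had the same leading class in every library. Itga8, whose dimer binds nephronectin and other RGD ligands, was at 1125, 1688 and 2509.8 CPM in alveolar fibroblasts, and every other class of the 16 had a lower level in each library. For alveolar fibroblasts the exact 95% Poisson interval of the cell library, which covers counting error only, was 1077 to 1174 CPM. Smooth muscle and myofibroblasts came next by the mean of the libraries, at 88.9, 1040.02 and 431 CPM, but AT2 cells were above them in the cell library. Itga9, which binds tenascin and other ligands, was highest in AT2 cells at 569, 1217 and 1524 CPM, above the other 15 classes in each library. Itga5, the chain of the classical fibronectin receptor, was spread more evenly, with 100.2, 72.1 and 114 CPM in venous cells, 80.6, 81.5 and 105 CPM in alveolar macrophages and 45.5, 169.6 and 75.4 CPM in smooth muscle and myofibroblasts, ranges that overlap. Itga4, the chain of leukocyte receptors for Vcam1 and fibronectin, was at 426, 888 and 552 CPM in T, NK and ILC2 cells, 489, 580.3 and 507 CPM in dendritic cells and 396, 646 and 446 CPM in B cells.

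The common beta chain Itgb1 was present in all 16 classes, from 531, 384 and 293 CPM in pericytes down to 186, 122 and 119 CPM in ciliated cells. Itgav was likewise at 20 CPM or more in all 16, with 196, 300.04 and 207 CPM in interstitial macrophages and 161, 125 and 226 CPM in mesothelium. Its special beta partners were more restricted. Itgb6 was at 344, 175 and 568 CPM in AT1 cells, against 18.9, 18.1 and 33.9 CPM in AT2 cells and 8.65, 7.2004 and 26.01 CPM in general capillary cells. The Poisson interval of the AT1 cells for Itgb6 was 297 to 397 CPM. Itgb8 was highest in adventitial fibroblasts at 40.7, 178 and 83.3 CPM. Itgb5, the chain of a vitronectin receptor, led in interstitial macrophages (187, 417 and 249 CPM) and aerocytes (154, 355 and 271 CPM), and Itgb3, known from platelets and endothelium, in AT1 cells (75.7, 34.9 and 107 CPM) among the 16. Itgb4, the partner of Itga6 in hemidesmosomes, was at 54.01, 71.1 and 104 CPM in ciliated cells and 98.7, 28.1 and 109 CPM in venous cells, where nuclei 1 lay below the others. Itga2b, the platelet partner of Itgb3, stayed at or under 16.1 CPM in each of the 16 classes and every library.

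The leukocyte chains were sorted by kind of leukocyte. Itgb2, the beta chain of the leukocyte-specific integrins, was highest in alveolar macrophages among the 16 classes, at 303, 131 and 147 CPM. Itgal, its partner in the lymphocyte receptor for Icam proteins, stood at 304, 264 and 211 CPM in T, NK and ILC2 cells and 245, 143 and 168 CPM in alveolar macrophages. Itgax, the chain known as CD11c, was at 299.8, 153 and 249 CPM in alveolar macrophages and 122, 119 and 124 CPM in dendritic cells. Itgam, the chain known as CD11b, was at 102, 201 and 129 CPM in interstitial macrophages and 10.1, 1.66 and 5.96 CPM in alveolar macrophages, in the opposite order to Itgax in those classes in every library. Itgb7 was at 191, 166 and 167 CPM in dendritic cells and 188, 109.5 and 146 CPM in T, NK and ILC2 cells. Itgae, its partner in the receptor for E-cadherin, led in dendritic cells at 106, 431 and 383 CPM. Itgad reached 13.8, 18.3 and 87.1 CPM in alveolar macrophages, most of it in nuclei 2.

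Dendritic subsets carried different alpha chains. The Xcr1 cluster held 271, 648 and 600.1 CPM of Itgae and the Cd209a cluster 20.7, 23.6 and 13.7 CPM. Itgam was the reverse, at 14.8, 18.8 and 20.1 CPM in the Xcr1 cluster and 91.3, 294 and 212 CPM in the Cd209a cluster. The subset levels did not overlap for either gene, and these are the chains by which the subsets are commonly sorted as CD103+ and CD11b+ dendritic cells.

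**Figure D1:**
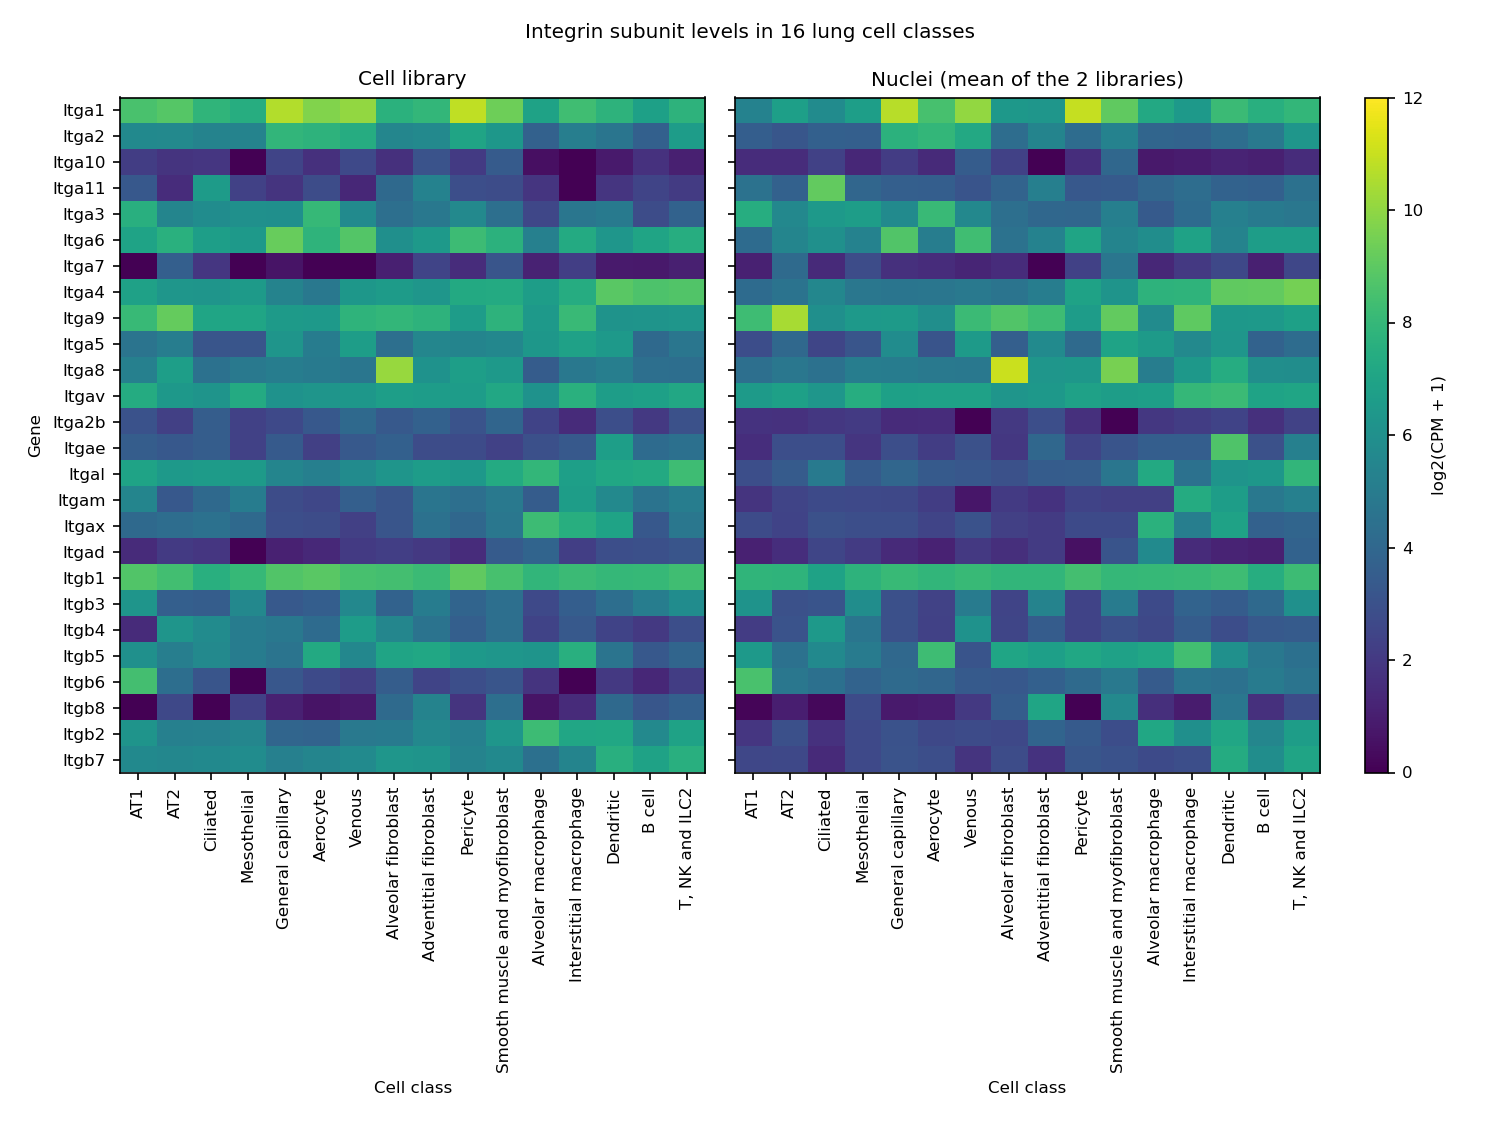
Level of each integrin chain (rows) in each of the 16 classes (columns), in the cell library (left) and as the mean of the nucleus libraries (right), as log2(CPM + 1) on the colour scale. Itgb1 and Itgav are filled across the classes, while Itga8, Itgb6, Itgae and Itga11 are highest in alveolar fibroblasts, AT1, dendritic and ciliated cells.

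Itgal, Itgam, Itgax and Itgad lie together on mouse chromosome 7, with Itgal at chr7:127296260-127335138 and Itgam, Itgax and Itgad in a row from 128062640 to 128223816 on the plus strand (GRCm38, the build named mm10). Of the leukocyte chains described above, RefSeq promoter windows were at hand for Itgam, Itgax, Itgb7 and Itga4. The 3 sequences shown are of chains led by macrophages and dendritic cells, and show the 200 bases from 220 to 21 bases before the RefSeq start of each gene, 5′ to 3′ on the gene's own strand, in GRCm38.p6. Capitals mark the letters GAGGAA, the core to which the myeloid transcription factor PU.1 (Spi1) is known to bind, searched on both strands. They are at chr7:128062420-128062619 (plus) for Itgam, chr7:128129330-128129529 (plus) for Itgax and chr15:102231956-102232155 (minus) for Itgb7.
Itgam: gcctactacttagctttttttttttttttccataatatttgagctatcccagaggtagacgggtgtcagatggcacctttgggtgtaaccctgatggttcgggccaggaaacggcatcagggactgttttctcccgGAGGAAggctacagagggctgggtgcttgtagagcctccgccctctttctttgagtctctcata
Itgax: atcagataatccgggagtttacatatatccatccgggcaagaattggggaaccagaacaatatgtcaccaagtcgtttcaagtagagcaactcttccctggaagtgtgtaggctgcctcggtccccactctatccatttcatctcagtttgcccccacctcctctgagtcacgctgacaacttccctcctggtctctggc
Itgb7: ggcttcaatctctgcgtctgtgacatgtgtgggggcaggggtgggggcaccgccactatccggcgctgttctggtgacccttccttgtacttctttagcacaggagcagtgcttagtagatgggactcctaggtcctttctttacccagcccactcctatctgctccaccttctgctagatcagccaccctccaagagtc
The Itgam stretch holds 1 match and the stretches of Itgax and Itgb7 none. In the 250 bases before the start, 13 of the 23 genes of the module with an entry held GAGGAA in at least 1 of their entries (26 entries in all). Among them were Itga11, Itgb6 and Lama5, which were not led by myeloid classes. Of all 32851 promoter entries, counted by entry and not by gene, 23.3% held it in the same 250 bases. A match says only that the letters are there.

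The laminin alpha chains differed in the classes where they stood highest, but Lama2 and Lama4 shared stromal classes. Lama2, the muscle and mesenchymal chain, was highest in adventitial fibroblasts (985, 2416 and 2863 CPM), then in pericytes (277, 1241 and 866 CPM) and alveolar fibroblasts (558, 663 and 1049 CPM). Lama3, an alpha chain of epithelial basement membranes, was at 701, 475 and 1468 CPM in AT1 cells and 31.6, 30.1 and 97.5 CPM in AT2 cells. Lama4, the chain of vascular and mesenchymal basement membranes, stood at 338, 1312 and 916 CPM in smooth muscle and myofibroblasts and at 320.1, 469.7 and 598 CPM in alveolar fibroblasts. Lama5, the broad chain of mature epithelial and endothelial basement membranes, was at 48.3, 91.1 and 187 CPM in mesothelium, 64.8, 112 and 118 CPM in ciliated cells and 47.4, 85.9 and 102 CPM in general capillary cells. Lama1, the embryonic chain, was at 81.1, 33.4 and 146 CPM in venous cells and 16.7, 2.72 and 9.29 CPM in general capillary cells, its next class, and the venous level lay above the general capillary level in every library.

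Of the gamma chains, Lamc1, the common chain, was at 236, 646 and 429 CPM in adventitial fibroblasts and 269, 373 and 457 CPM in alveolar fibroblasts. Lamc3, a minor gamma chain, was at 5.65, 140.4 and 8.49 CPM in pericytes, high in nuclei 1 alone. Of the beta chains, Lamb1 was at 138, 175 and 178 CPM in alveolar fibroblasts and Lamb2 at 161, 43.3 and 36.7 CPM in mesothelium, where the cells lay above both nucleus libraries. The laminin chains together summed to 1742, 3554 and 4228 CPM in adventitial fibroblasts and 82.9, 121 and 164 CPM in alveolar macrophages.

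Lamb3, a known partner of Lama3, had another leading class. It was at 157, 40.04 and 61.1 CPM in AT1 cells, but its leading class was alveolar fibroblasts, at 213, 752 and 393 CPM. In GENCODE M21 the gene spans chr1:193207699-193343878 on the plus strand and overlaps Hsd11b1, a corticosteroid-converting enzyme, over 42442 bases on the opposite strand and 4930570N18Rik over 18510 bases on the same strand. Hsd11b1 was itself at 308, 144 and 84.6 CPM in alveolar fibroblasts, and over the 16 classes Lamb3 correlated with it at r = 0.64 in the cells and 0.91 in the nuclei. The strand used in counting is not given in the sources used here, so transcripts of Lamb3 and of these neighbours cannot be told apart, and the Lamb3 levels outside epithelium are uncertain. RefSeq places the promoter windows of Lamb3 from 193301744, beyond the end of Hsd11b1 at 193264075. Itgam is uncertain in the same way, since Gm49368 overlaps it on the same strand over 55809 bases, and Itga10 with Gm42957 over 7518. Overlaps of 953 to 10929 bases with genes on the opposite strand were present for Itga1, Itga4, Itga8, Itga9, Itgad, Itgae, Lama2 and Lama3, and reads there cannot be told apart either.

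**Figure D2:**
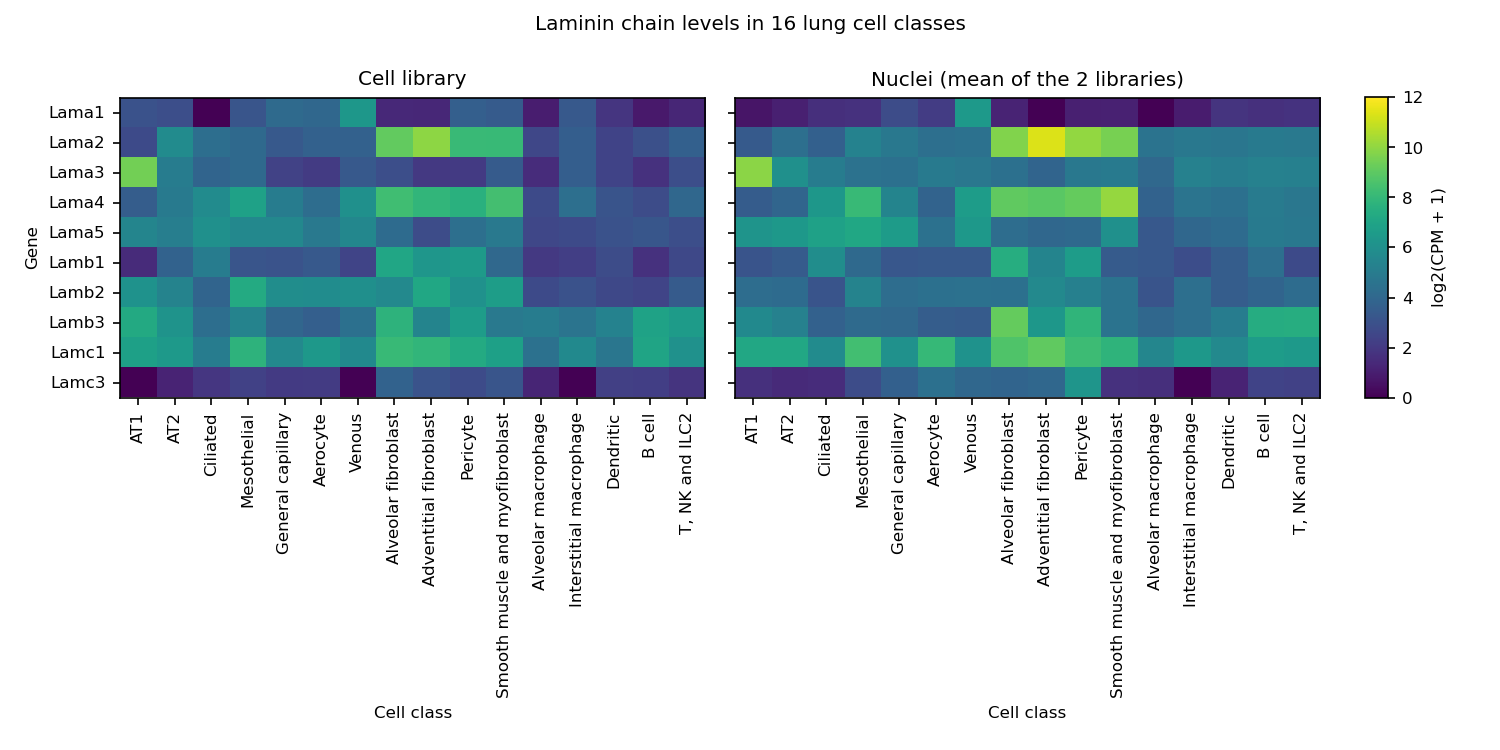
Level of laminin chains (rows) in each of the 16 classes (columns), in the cell library (left) and as the mean of the nucleus libraries (right), as log2(CPM + 1) on the colour scale. Lama3 has AT1 as the leading class, Lama2 and Lama4 fill the stromal classes, and Lamb3 leads in alveolar fibroblasts.

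Pairing was then read from the partners' levels. A class was counted for a complex when every known partner reached 20 CPM there in all 3 libraries. Leukocyte chains reached that mark in classes that are not leukocytes. Over the 11 such classes Itgal was at 35.6 to 160 CPM in the cells, 2.29 to 23.7 in nuclei 1 and 6.41 to 33.5 in nuclei 2. A class counted near the mark is therefore no proof that its cells make the pair, and the source of such counts was not tested. By this measure 20 of 24 known integrin pairs and 8 of 13 known laminin trimers had at least 1 of the 16 classes. Itga1/Itgb1, Itga9/Itgb1 and Itgav/Itgb1 had all 16, Itga6/Itgb1 had 13, Itgav/Itgb5 11, Itga8/Itgb1 10, Itga4/Itgb1 9, Itga3/Itgb1 8, Itga5/Itgb1 7, Itga2/Itgb1 6 and Itgav/Itgb3 5. The collagen receptor Itga11/Itgb1 had adventitial fibroblasts and ciliated cells. There were 4 pairs with none: Itga7/Itgb1, Itga10/Itgb1, Itgad/Itgb2 and Itga2b/Itgb3.

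The pairs with few classes named particular cells. Itgav/Itgb6 was met in AT1 cells alone, though AT2 cells missed it through Itgb6 levels just under the mark in 2 libraries. Itgav/Itgb8 was met in adventitial fibroblasts alone. In that class 3 counts are 14.05 CPM in nuclei 1 and 19.2 CPM in nuclei 2, so levels near the mark there rest on few counts. Itgal/Itgb2 was met in alveolar macrophages, B cells, dendritic cells and T, NK and ILC2 cells, Itgax/Itgb2 in both macrophage classes and dendritic cells, and Itgam/Itgb2 in interstitial macrophages, dendritic cells and T, NK and ILC2 cells. Itgae/Itgb7 was met in dendritic cells and T, NK and ILC2 cells, and Itga4/Itgb7 in those and B cells. The hemidesmosome pair Itga6/Itgb4 was met in ciliated, mesothelial and venous cells.

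Laminin trimers were also met in few classes, some of them shared between trimers. Lama2/Lamb1/Lamc1 was met in adventitial fibroblasts, alveolar fibroblasts and pericytes, and Lama2/Lamb2/Lamc1 in adventitial fibroblasts and pericytes. Lama4/Lamb1/Lamc1 was met in 4 classes (both fibroblasts, pericytes and ciliated cells) and Lama4/Lamb2/Lamc1 in 4 (adventitial fibroblasts, pericytes, mesothelium and venous cells). Lama5/Lamb2/Lamc1 was met in mesothelium and venous cells, Lama5/Lamb1/Lamc1 in ciliated cells and Lama1/Lamb2/Lamc1 in venous cells.

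Over the 16 classes, partners tracked each other more than other combinations did. The 24 known integrin pairs had a median Pearson r of 0.37 in the cells and 0.24 in the nuclei on log2(CPM + 1), against 0.065 and 0.0078 for the 120 other alpha and beta combinations. Laminin chains that share a trimer had medians of 0.54 and 0.47 over 24 pairs, against 0.012 and -0.10 over the 15 others. The points share their libraries, and these values are descriptions. Among the most alike were Itgax/Itgb2 (0.89 in the cells and 0.82 in the nuclei), Itgal/Itgb2 (0.87 in the cells and 0.81 in the nuclei) and Itga4/Itgb7 (0.71 in the cells and 0.79 in the nuclei).

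High r was not limited to partners. Itga4 and Itgb2, which form no known dimer, had 0.65 in the cells and 0.87 in the nuclei, and both are leukocyte genes. Low r was found for true partners with a broad common chain: Itgav/Itgb6 had -0.061 in the cells and -0.077 in the nuclei, and Itga11/Itgb1 -0.23 in the cells and -0.63 in the nuclei. Ciliated cells, the leading class of Itga11, had the lowest mean level of Itgb1 among the 16.

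**Figure D3:**
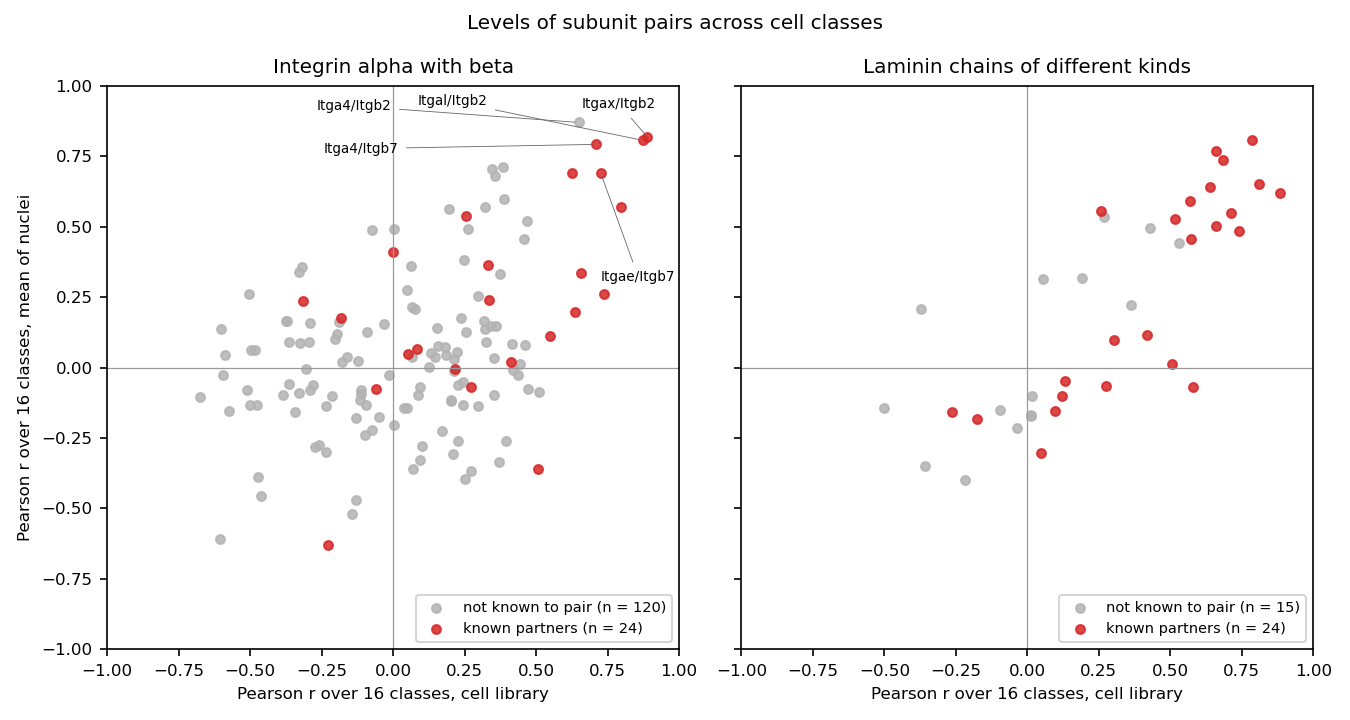
Pearson r of log2(CPM + 1) over the 16 classes in the cells (x axis) and the nuclei (y axis), 1 point per combination, with known partners and other combinations in separate colours. Leukocyte pairs such as Itgax/Itgb2 lie at the upper right, and Itga11/Itgb1 is negative on both axes.

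Barcodes holding a UMI of every partner were counted after each barcode was thinned to 1000 UMIs. In alveolar fibroblasts Itga8/Itgb1 was co-detected in 19.9, 12.9 and 20.4% of barcodes, and the product of the single shares was 18.2, 12.8 and 19.9%. In pericytes Itga1/Itgb1 was co-detected in 32.5, 24.5 and 17.3%, with a product of 31.3, 24.3 and 17.1%. Both stood close to what independent detection within the class gives. Without thinning, the shares were 54.05, 60.7 and 49.1% and 75.7, 68.3 and 40.7%. Over 57 combinations of a complex and a class with at least 5 co-detected barcodes in every library (171 values), a choice that leans towards high values, the ratio of observed share to product had a median of 1.04 and ran from 0.453 to 2.10.

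Itgae/Itgb7 in dendritic cells stood above its product in nuclei 1, at 1.44, 9.60 and 6.75% against 1.32, 4.57 and 4.47%. Its ratio in nuclei 1, 2.10, was the highest of the 171 values and is given for that reason. The exact 95% binomial intervals of the shares were 0.692 to 2.63%, 5.06 to 16.2% and 3.42 to 11.8%. Such intervals, here and below, cover the counting of barcodes within a library only, and barcodes are not replicates. Without thinning the shares were 10.2, 27.2 and 15.98%. The class is a mix of Itgae-high and Itgae-low subsets, as given above. The interval of nuclei 2 holds its product, and there the ratio of share to product was 1.51 at 1000 UMIs, 0.833 at 500 and 1.13 at 2000. In AT2 cells, which should lack the pair, 0 of 488, 1346 and 1584 barcodes held both, which at 3 counts of the total allows shares of up to 0.615, 0.223 and 0.189%. Itgav/Itgb6 was co-detected in 4.02, 1.19 and 3.28% of AT1 barcodes (24.7, 14.2 and 25.3% without thinning) and in 0.0758, 0.106 and 0.09285% of general capillary barcodes (0.379, 0.9004 and 0.648%). For Itgal/Itgb2 the share in T, NK and ILC2 cells was 2.63, 2.46 and 2.21%, and in AT2 cells, which should lack the pair, it was 1.02, 0 and 0%. The intervals in the cells were 1.74 to 3.798% and 0.333 to 2.37%, which overlap. Without thinning the shares were 15.7, 14.5 and 4.27% and 4.71, 0.0743 and 0.06203%.

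Cells and nuclei were first compared over whole libraries, in CPM scaled by TMM factors. Of the 37 genes, 7 were higher in the cells and 4 lower, where 16.4% and 8.42% of all 19806 genes tested were called higher and lower. Read against that background, these counts set the module as a whole apart in neither direction. The median log2 fold change was -0.0034, against -0.026 over all genes. In whole libraries, fewer cells of a type and less RNA per cell cannot be told apart.

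The 7 higher genes were 6 leukocyte chains and Itga5. Itgal was at 251, 22.8 and 30.6 scaled CPM (log2 fold change 3.23, SE 0.34, adjusted p = 0.00442). Itgb2 was at 160.2, 17.6 and 17.3 scaled CPM (log2 fold change 3.20, SE 0.30, adjusted p = 0.00433). Itgb7 was at 95.6, 11.7 and 12.9 scaled CPM (log2 fold change 2.96, SE 0.30, adjusted p = 0.00441). For each of these the cells lay above both nucleus libraries, which lay close together. Itgax was at 94.5, 9.91 and 18.2 scaled CPM (log2 fold change 2.75, SE 0.41, adjusted p = 0.00793). Itgam was at 56.2, 12.1 and 10.2 scaled CPM (log2 fold change 2.33, SE 0.31, adjusted p = 0.00623). Itga4 was at 270.3, 88.6 and 74.4 scaled CPM (log2 fold change 1.73, SE 0.33, adjusted p = 0.0147). Again no nucleus library reached the cells. The share of leukocytes, 52.1% of cells against 14.2% and 17.6% of nuclei, moves with these 6 chains, and its part in the result was not tested. Itga5 was at 61.8, 28.8 and 25.9 scaled CPM (log2 fold change 1.18, SE 0.30, adjusted p = 0.0348), and DESeq2 gave it an adjusted p of 0.0583.

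The lower genes included Lama5, Lama4 and Itga9. Lama5 was at 18.4, 54.9 and 76.1 scaled CPM (log2 fold change -1.83, SE 0.38, adjusted p = 0.019). Lama4 was at 59.1, 149 and 132 scaled CPM (log2 fold change -1.25, SE 0.34, adjusted p = 0.0446). Both nucleus libraries lay above the cells for each. Itga9 was at 144, 410.1 and 368 scaled CPM (log2 fold change -1.43, SE 0.39, adjusted p = 0.0432). Itga9 was highest in AT2 cells, and epithelial barcodes made up 6.57% of the cells and 28.1% and 43.6% of the nuclei, and the part of these shares in the result was not tested.

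Several large differences did not pass the test by edgeR. Lama3, of AT1 cells, was at 17.5, 46.9 and 245 scaled CPM (log2 fold change -3.06, SE 1.00, adjusted p = 0.0708, -3.82 without nuclei 1, -1.43 without nuclei 2). Itgb6, also of AT1 cells, was at 11.1, 22.1 and 103 scaled CPM (log2 fold change -2.498, SE 0.91, adjusted p = 0.0928, -3.23 without nuclei 1, -1.004 without nuclei 2). Itga11 was at 5.75, 14.6 and 73.6 scaled CPM (log2 fold change -2.94, SE 0.98, adjusted p = 0.0733, -3.69 without nuclei 1, -1.36 without nuclei 2). In all 3 the level of nuclei 2 was several times that of nuclei 1, and both were above the cells. Lama2 was at 83.8, 198 and 187 scaled CPM (log2 fold change -1.20, SE 0.35, adjusted p = 0.0519), and Itga8 at 109, 232 and 272 scaled CPM (log2 fold change -1.21, SE 0.37, adjusted p = 0.0589). With DESeq2 these 5 genes were called, at adjusted p = 0.00025 for Lama3, 0.00329 for Itgb6, 0.0007 for Itga11, 0.0335 for Lama2 and 0.0316 for Itga8, and so was Itga7, at adjusted p = 0.0398. Neither common chain was called: Itgb1 was at 346, 252 and 203 scaled CPM (log2 fold change 0.61, SE 0.36, adjusted p = 0.256), and Itgav at 111, 119.7 and 102 scaled CPM (log2 fold change -0.0034, SE 0.33, adjusted p = 0.995). For Itgb1 both nucleus libraries lay below the cells, while for Itgav they lay on both sides. 
The other integrins were not called over whole libraries. Among the collagen and laminin receptors, Itga1 was at 523, 647 and 276 scaled CPM (log2 fold change 0.18, SE 0.57, adjusted p = 0.834, 0.91 without nuclei 1), and Itga2 at 82.1, 74.1 and 43.8 scaled CPM (log2 fold change 0.48, SE 0.39, adjusted p = 0.402). Itga3 was at 45.5, 60.7 and 64.8 scaled CPM (log2 fold change -0.47, SE 0.31, adjusted p = 0.303), and Itga6 at 188, 168 and 83.6 scaled CPM (log2 fold change 0.58, SE 0.47, adjusted p = 0.394). The nucleus libraries lay on both sides of the cells for Itga1. Of the beta chains, Itgb3 was at 22.6, 11.3 and 26.5 scaled CPM (log2 fold change 0.26, SE 0.53, adjusted p = 0.74, 0.99 without nuclei 2), and Itgb4 at 19.5, 9.14 and 20.3 scaled CPM (log2 fold change 0.40, SE 0.51, adjusted p = 0.588, 1.08 without nuclei 2). Itgb5 was at 67.7, 81.3 and 66.6 scaled CPM (log2 fold change -0.13, SE 0.32, adjusted p = 0.795), and Itgb8 at 5.69, 7.27 and 5.36 scaled CPM (log2 fold change -0.15, SE 0.48, adjusted p = 0.837). Itgae was at 17.2, 14.3 and 11.1 scaled CPM (log2 fold change 0.44, SE 0.37, adjusted p = 0.412). The low chains Itga2b, Itga7, Itga10 and Itgad had adjusted p from 0.0584 to 0.868.

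Of the other laminins, Lamb1 was at 20.5, 34.6 and 32.6 scaled CPM (log2 fold change -0.71, SE 0.32, adjusted p = 0.15) and Lamb2 at 31.9, 16.95 and 18.9 scaled CPM (log2 fold change 0.83, SE 0.32, adjusted p = 0.101). Lamb3 was at 67.6, 117 and 71.3 scaled CPM (log2 fold change -0.48, SE 0.41, adjusted p = 0.412). Lamc1 was at 80.6, 182 and 139 scaled CPM (log2 fold change -0.99, SE 0.37, adjusted p = 0.0958) and Lamc3 at 3.43, 18.2 and 4.32 scaled CPM (log2 fold change -1.71, SE 0.88, adjusted p = 0.195, -0.35 without nuclei 1, -2.42 without nuclei 2). Lama1 was at 8.18, 2.28 and 3.99 scaled CPM (log2 fold change 1.38, SE 0.54, adjusted p = 0.107). None of them was called. Over the whole module, the genes called higher span 15.95 to 77.7 kb with a median of 35.5 kb, those called lower 49.5 to 294 kb with a median of 104 kb, and over the 37 genes log2 fold change and log10 gene length had r = -0.51. The part of gene length in the result was not tested.

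**Figure D4:**
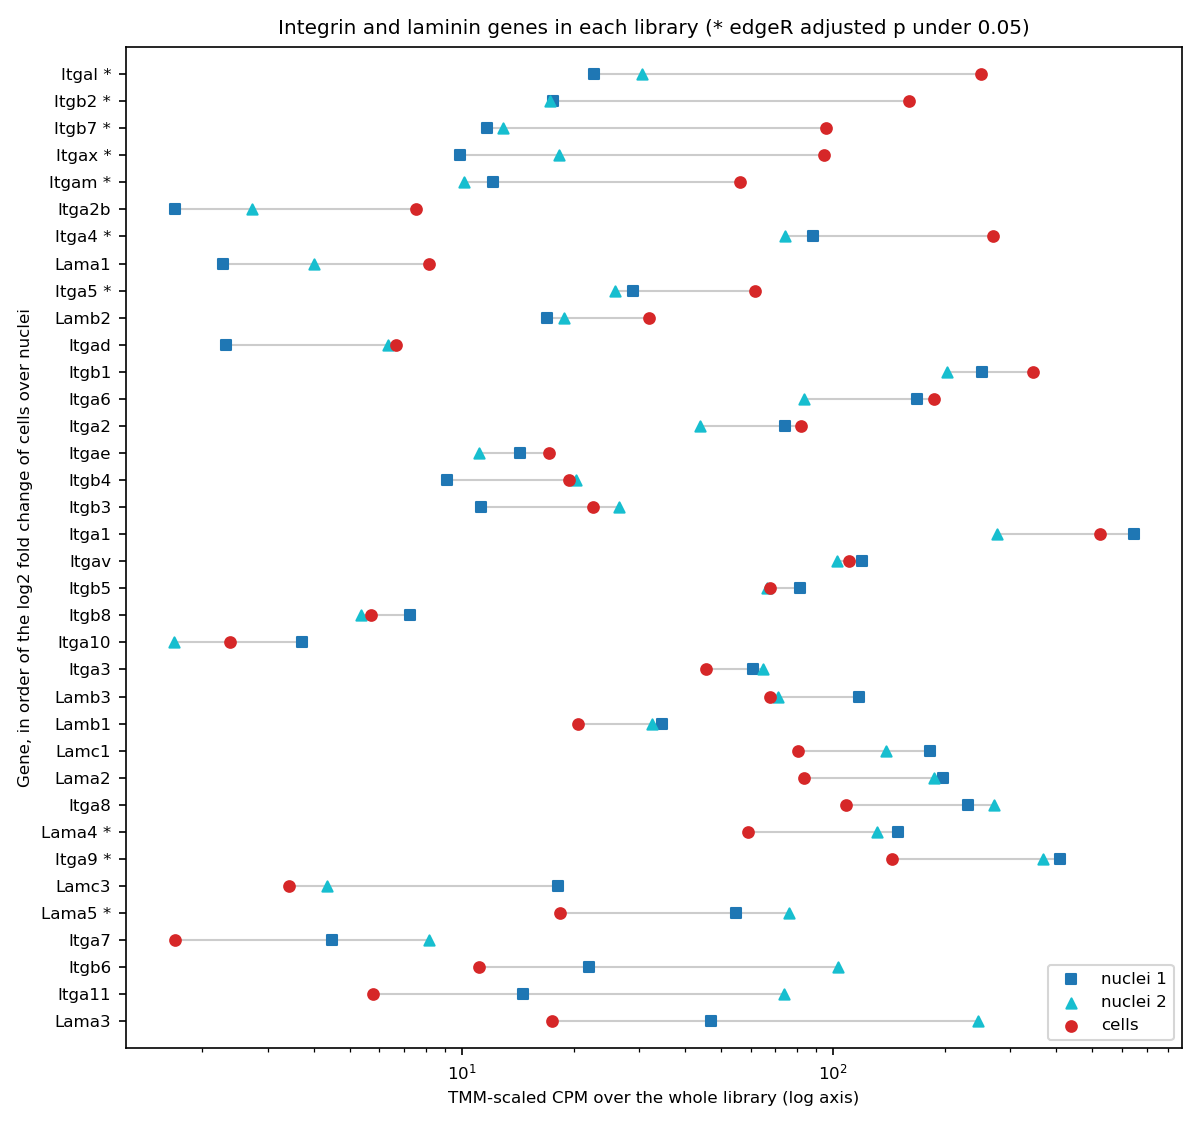
Level of genes of the module in the whole libraries, in TMM-scaled CPM on a log axis, with 1 point for the cells and 1 for each nucleus library, a grey line over their range, and genes in order of their fold change. The leukocyte chains Itgal, Itgb2, Itgb7, Itgax and Itgam have the cells far to the right of both nucleus points, and Lama3, Itgb6 and Itga11 have nucleus points far from each other.

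Genes that act with the module were read from the same whole-library test, in which 16.4% of all genes were called higher and 8.42% lower. The difference between the groups of genes was not tested. Of 18 other basement membrane genes, 2 were higher and 5 lower in the cells, with a median log2 fold change of -0.99. Of the 6 type IV collagen chains 4 were lower: Col4a3 was at 38.8, 229.8 and 413 scaled CPM (log2 fold change -3.05, adjusted p = 0.012), and Col4a4 at 41.4, 249.8 and 479 scaled CPM (log2 fold change -3.14, adjusted p = 0.0131). Col4a5 was at 25.4, 138 and 388 scaled CPM (log2 fold change -3.37, adjusted p = 0.0229) and Col4a6 at 10.05, 43.6 and 139.6 scaled CPM (log2 fold change -3.19, adjusted p = 0.0304), and nuclei 2 was the highest library for these 4. Col4a1 (log2 fold change 0.17, adjusted p = 0.753) and Col4a2 (log2 fold change -0.53, adjusted p = 0.356) were not called. The share of epithelial barcodes, 6.57% of the cells against 28.1% and 43.6% of the nuclei, moves with the 4 lower chains, and its part in the result was not tested. The higher genes were Papln, a matrix glycoprotein, at 18.7, 2.202 and 2.98 scaled CPM (log2 fold change 2.85, adjusted p = 0.00826), and Col15a1, a collagen of vascular basement membranes, at 12.1, 3.93 and 3.22 scaled CPM (log2 fold change 1.76, adjusted p = 0.0345).

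Of 24 other ligands of integrins tested, 12 were higher in the cells and 2 lower, with a median of 0.79. Thbs1, thrombospondin 1, was at 132, 9.98 and 12.9 scaled CPM (log2 fold change 3.53, adjusted p = 0.00415). Tgfb1, whose latent form binds Itgav dimers, was at 283, 40.4 and 32.8 scaled CPM (log2 fold change 2.95, adjusted p = 0.00452). Icam2, a counter-receptor of Itgal/Itgb2, was at 144, 31.8 and 27.2 scaled CPM (log2 fold change 2.28, adjusted p = 0.00601), and Mfge8, a bridge between dying cells and Itgav dimers, at 83.3, 16.7 and 18.9 scaled CPM (log2 fold change 2.22, adjusted p = 0.00603). The 2 lower genes were Cdh1, E-cadherin, the ligand of Itgae/Itgb7, at 39.4, 187 and 287 scaled CPM (log2 fold change -2.59, adjusted p = 0.0121), and Egfl6, at 8.81, 38.7 and 51.8 scaled CPM (log2 fold change -2.36, adjusted p = 0.00998).

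Of 34 activators and adaptors, 8 were higher and 5 lower, with a median of -0.036. Among the higher, Syk, a kinase of leukocyte signalling, was at 269, 47.4 and 51.5 scaled CPM (log2 fold change 2.44, adjusted p = 0.00554), and Parvg, the leukocyte parvin, at 23.4, 3.34 and 2.61 scaled CPM (log2 fold change 2.98, adjusted p = 0.00625). Zyx, a focal adhesion protein, was at 131, 24.4 and 32.8 scaled CPM (log2 fold change 2.20, adjusted p = 0.00766), and Rap1b, a small GTPase that activates integrins, at 654, 203 and 167 scaled CPM (log2 fold change 1.82, adjusted p = 0.0178). Syk and Parvg are genes of leukocytes, whose share differed between the libraries as given above. Among the lower, Kank1, a talin-binding protein, was at 13.7, 65.7 and 114 scaled CPM (log2 fold change -2.71, adjusted p = 0.0121), and Tln2, the second talin, at 24.3, 66.6 and 66.3 scaled CPM (log2 fold change -1.45, adjusted p = 0.0242). Ilk, the integrin-linked kinase, was at 3.82, 13.4 and 13.6 scaled CPM (log2 fold change -1.82, adjusted p = 0.0284), and its partner Parva at 89.7, 264 and 253 scaled CPM (log2 fold change -1.53, adjusted p = 0.0304).

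Of 14 other laminin receptors and hemidesmosome genes, 3 were higher and 3 lower, with a median of 0.38. Rpsa, a ribosomal protein also described as a laminin receptor, was at 1815, 108 and 146 scaled CPM (log2 fold change 3.84, adjusted p = 0.00452), and it has many near-identical pseudogenes, so its value is uncertain. Cd151, a tetraspanin that binds laminin-receptor integrins, was at 52.9, 12.8 and 14.7 scaled CPM (log2 fold change 1.94, adjusted p = 0.0094), and Plec, the plakin of hemidesmosomes, at 173, 76.4 and 78.9 scaled CPM (log2 fold change 1.16, adjusted p = 0.0404). The lower genes were Dmd, dystrophin, at 70.1, 329 and 217 scaled CPM (log2 fold change -1.96, adjusted p = 0.0248), Sdc1, a syndecan, at 17.5, 39.2 and 47.01 scaled CPM (log2 fold change -1.30, adjusted p = 0.0377), and Sgcd, a sarcoglycan, at 40.3, 108 and 84.3 scaled CPM (log2 fold change -1.25, adjusted p = 0.0471).

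The comparison was repeated inside each of the 16 classes, with values scaled within the class. Each class was fitted alone, so p-values of different classes are not on the same footing and are not ranked against each other. Over 447 tests of a gene in a class, 82 were called higher in the cells and 34 lower, where 15.2% and 8.16% of all 170991 gene by class tests were called higher and lower. In at least 1 class, 30 of the 37 genes were called. The 7 called in none were Itga7, Itga10, Itgad, Itgb1, Itgb3, Lama1 and Lamb1. Of these, Itgb1 was nonetheless above the nuclei in all 16 classes by its fitted log2 fold change, with a median of 0.53. The classes share their libraries, so these 16 values are not independent.

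The counts are given by class, each beside the percentages of all genes tested in the class that were called higher and lower. AT1 cells had 10 higher and 0 lower of 30 (14.7% and 7.3%). AT2 cells had 13 higher and 3 lower of 36 (20.4% and 15.2%). Ciliated cells had 3 higher and 1 lower of 19 (13% and 9.02%). AT1 and AT2 cells thus had higher counts of members above the share of all genes. The same held in other classes given below, among them mesothelial cells, venous cells and interstitial macrophages. The higher calls of both AT1 and AT2 cells include the leukocyte chains Itgal, Itgb2, Itgb7 and Itga4. Mesothelial cells had 5 higher and 2 lower of 24 (13.7% and 7.56%). Alveolar fibroblasts had 5 higher and 0 lower of 34 (11.1% and 3.2%). Adventitial fibroblasts had 4 higher and 2 lower of 20 (15% and 3.64%). In these the higher calls outnumbered the lower, as they did over all genes. Pericytes had 4 higher and 4 lower of 31 (11.5% and 6.18%). Smooth muscle and myofibroblasts had 5 higher and 4 lower of 27 (12.8% and 6.74%). Higher and lower calls were nearly even in both. General capillary cells had 4 higher and 1 lower of 34 (14.2% and 6.93%). Aerocytes had 6 higher and 3 lower of 30 (16.5% and 9.39%). Venous cells had 7 higher and 1 lower of 28 (14.6% and 5.6%). Over all genes, too, higher calls outnumbered lower ones in the endothelium. Alveolar macrophages had 5 higher and 3 lower of 29 (23.4% and 13.6%). Interstitial macrophages had 6 higher and 0 lower of 26 (14.7% and 7.82%). Dendritic cells had 2 higher and 3 lower of 24 (19.5% and 9.53%). Dendritic cells leaned the other way. B cells had 2 higher and 2 lower of 24 (11.4% and 6.59%). T, NK and ILC2 cells had 1 higher and 5 lower of 31 (14.9% and 8.67%). Among the 16 classes, T, NK and ILC2 cells had the most lower calls.

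The leukocyte chains Itgal, Itgb2 and Itgb7 gave 37 of the 82 higher calls, many of them in classes that are not leukocytes. Itgal was higher in the cells in all 11 classes that are not leukocytes and in 4 leukocyte classes, Itgb7 in 11 and 3, and Itgb2 in 6 and 2. In alveolar fibroblasts Itgal was at 72.7, 4.88 and 9.201 scaled CPM (log2 fold change 3.36, SE 0.45, adjusted p = 0.00351). Itgb7 in the same class was at 75.3, 5.28 and 6.69 scaled CPM (log2 fold change 3.64, SE 0.41, adjusted p = 0.00231). In venous cells Itgb7 was at 55.7, 2.81 and 2.24 scaled CPM (log2 fold change 4.35, SE 0.78, adjusted p = 8.57e-07), and in AT1 cells Itgb2 was at 64.8, 1.86 and 3.81 scaled CPM (log2 fold change 4.35, SE 0.52, adjusted p = 0.000483, 5.10 without nuclei 2). In ciliated cells Itgb7 had 0 counts in nuclei 1, and the cells were at least 5.05-fold higher than 3 counts there.

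Against their level in the 5 leukocyte classes, the mean of the 11 other classes was 30.4, 4.63 and 11.8% for Itgal, 54.8, 4.75 and 11.5% for Itgb7 and 14.1, 4.004 and 6.52% for Itgb2, with the cells highest each time. All 10 of 10 T cell markers also had counts in those 11 classes, with summed levels of 299.9 to 909 CPM (median 646) in the cells, 23.4 to 955 (median 46.3) in nuclei 1 and 38.4 to 620.1 (median 93.5) in nuclei 2. Their part in the result was not tested. Within their own cells, in alveolar macrophages, Itgb2 was at 377, 124 and 130.03 scaled CPM (log2 fold change 1.57, SE 0.27, adjusted p = 0.00108), and Itgal at 305, 135 and 148 scaled CPM (log2 fold change 1.11, SE 0.27, adjusted p = 0.00944). Itgax in interstitial macrophages was at 209.8, 38.97 and 28.6 scaled CPM (log2 fold change 2.60, SE 0.44, adjusted p = 5.47e-05).

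The other 45 higher calls included chains in classes outside their leading one. Itga1 in AT1 cells was at 334, 39.1 and 43.5 scaled CPM (log2 fold change 3.01, SE 0.34, adjusted p = 0.000405), and in AT2 cells at 454, 102 and 112 scaled CPM (log2 fold change 2.08, SE 0.34, adjusted p = 0.000915). It was not called in pericytes or general capillary cells, the classes with its highest levels. Itga6 in aerocytes was at 216, 26.5 and 39.8 scaled CPM (log2 fold change 2.72, SE 0.38, adjusted p = 6.33e-08), and in AT1 cells at 110.1, 20.5 and 16.3 scaled CPM (log2 fold change 2.60, SE 0.36, adjusted p = 0.000836). In smooth muscle and myofibroblasts it was at 223, 30.9 and 54.1 scaled CPM (log2 fold change 2.47, SE 0.53, adjusted p = 6.26e-05). Neither nucleus library came near the cells in these classes. Itgb4 in AT2 cells was at 75.6, 5.65 and 9.04 scaled CPM (log2 fold change 3.37, SE 0.37, adjusted p = 0.000113), and in alveolar fibroblasts at 42.3, 4.06 and 5.44 scaled CPM (log2 fold change 3.14, SE 0.48, adjusted p = 0.00524). Itga4 was higher in 5 classes, none of them leukocytes, with alveolar fibroblasts at 91.3, 15.8 and 32.2 scaled CPM (log2 fold change 1.92, SE 0.45, adjusted p = 0.0268). Whether these classes differ from the leading ones in this effect was not tested.

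Lamb2 was the laminin with the most higher calls, in 8 of the 13 classes where it was tested. Over all gene by class tests, 15.2% were called higher. In mesothelium, its leading class, it was at 172, 46.1 and 36.9 scaled CPM (log2 fold change 2.08, SE 0.44, adjusted p = 4.59e-05), and in general capillary cells at 59.02, 16.4 and 20.7 scaled CPM (log2 fold change 1.69, SE 0.37, adjusted p = 0.00468). Of the 11 higher laminin calls, 8 were thus Lamb2, 2 were Lamb3 and 1 was Lama2.

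Laminins made up 21 of the 34 lower calls, where 8.16% of all gene by class tests were called lower. Lama3 was lower in 6 of the 15 classes where it was tested, Lama2 in 4 of 15 and Lama4 in 3 of 16. Lama5 was lower in 3 of 14 and Lamc3 in 3 of 5, while Lama1, Lamb1, Lamb2 and Lamb3 had no lower call. Of the 4 stromal classes Lama2 fell in 3 and Lama4 in 2, with neither called in alveolar fibroblasts. Lama2 in adventitial fibroblasts was at 1210.2, 2605 and 3029 scaled CPM (log2 fold change -1.22, SE 0.41, adjusted p = 0.0186), and in pericytes at 269.8, 1379 and 838 scaled CPM (log2 fold change -2.04, SE 0.52, adjusted p = 0.0191). Lama4 in smooth muscle and myofibroblasts was at 363, 1398 and 919 scaled CPM (log2 fold change -1.68, SE 0.47, adjusted p = 0.00351), and in pericytes at 192, 777 and 425 scaled CPM (log2 fold change -1.65, SE 0.49, adjusted p = 0.0373). Lama5 in AT2 cells was at 34.02, 73.8 and 90.4 scaled CPM (log2 fold change -1.27, SE 0.36, adjusted p = 0.018). Lamc1 in aerocytes was at 80.5, 432 and 131 scaled CPM (log2 fold change -1.81, SE 0.48, adjusted p = 0.00263, -0.75 without nuclei 1, -2.46 without nuclei 2). For these genes both nucleus libraries lay above the cells.

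Lama3 was called lower in 6 classes that are not AT1 or AT2. In pericytes it was at 3.05, 27.002 and 28.8 scaled CPM (log2 fold change -3.14, SE 0.80, adjusted p = 0.0192), and in T, NK and ILC2 cells at 7.68, 9.32 and 56.1 scaled CPM (log2 fold change -2.03, SE 0.61, adjusted p = 0.00601, -2.94 without nuclei 1, -0.34 without nuclei 2). Itgb6 in B cells was at 1.803, 11.7 and 46.8 scaled CPM (log2 fold change -3.94, SE 1.28, adjusted p = 0.0165, -4.70 without nuclei 1, not fitted without nuclei 2). All 10 of 10 AT1 markers had counts in the leukocyte classes in every library, with medians of 367, 783 and 1241 summed CPM, lowest in the cells, and their part in the result was not tested.

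Single calls of other chains followed. Itga2 was higher in the cells in pericytes, at 123, 4.0003 and 30.8 scaled CPM (log2 fold change 3.04, SE 0.68, adjusted p = 0.0101, 1.93 without nuclei 1, 4.85 without nuclei 2), and in AT2 cells, at 49.8, 6.38 and 9.99 scaled CPM (log2 fold change 2.61, SE 0.39, adjusted p = 0.000502). Itga3 was higher in pericytes, at 48.2, 11.001 and 18.5 scaled CPM (log2 fold change 1.77, SE 0.56, adjusted p = 0.047), and Itga5 in interstitial macrophages, at 131, 37.2 and 57.3 scaled CPM (log2 fold change 1.49, SE 0.47, adjusted p = 0.0201). Itgb5 was higher in venous cells, at 48.5, 11.2 and 4.48 scaled CPM (log2 fold change 2.501, SE 0.65, adjusted p = 0.00141, 3.35 without nuclei 1), and Itgam in AT1 cells, at 38.9, 0.621 and 4.58 scaled CPM (log2 fold change 3.62, SE 0.75, adjusted p = 0.00686, 5.80 without nuclei 2). In each of these calls both nucleus libraries lay below the cells. Lamb3 was higher in AT1 cells, at 141, 43.5 and 64.3 scaled CPM (log2 fold change 1.37, SE 0.37, adjusted p = 0.0242). Itgav was lower in dendritic cells, at 127, 312 and 236 scaled CPM (log2 fold change -1.11, SE 0.42, adjusted p = 0.0384), and Itgb8 in adventitial fibroblasts, at 49.96, 192 and 88.1 scaled CPM (log2 fold change -1.51, SE 0.55, adjusted p = 0.0348). The part of the differing mix of dendritic subsets in the Itgav call was not tested. Lamc3 was lower in pericytes, at 5.49, 156 and 8.22 scaled CPM (log2 fold change -3.95, SE 1.15, adjusted p = 0.0333, not fitted without nuclei 1, -4.86 without nuclei 2). Itga2b in venous cells had 21 counts in the cells and 0 in both nucleus libraries, and was at least 4.01-fold higher than 3 counts in nuclei 1 and at least 2.31-fold higher than 3 counts in nuclei 2.

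Some integrins also fell in their own class. Itga11 in ciliated cells was at 97.3, 490.4 and 699.6 scaled CPM (log2 fold change -2.63, SE 0.38, adjusted p = 0.00062). Itga9 in AT2 cells was at 568, 1302 and 1442 scaled CPM (log2 fold change -1.27, SE 0.45, adjusted p = 0.0453). Itgae in dendritic cells was at 131, 430.2 and 352 scaled CPM (log2 fold change -1.58, SE 0.44, adjusted p = 0.00333), and in the Xcr1 cluster alone it was at 271, 648 and 600.1 CPM, again lowest in the cells. Outside their own class, Itga11 and ciliated markers moved together: in AT2 cells Itga11 was at 1.89, 9.66 and 14.7 scaled CPM (log2 fold change -2.66, SE 0.76, adjusted p = 0.0189), and the 8 ciliated markers there summed to 143, 271 and 464 CPM, with Dnah5 at 0 in the cells. Their part in the Itga11 result was not tested.

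**Figure D5:**
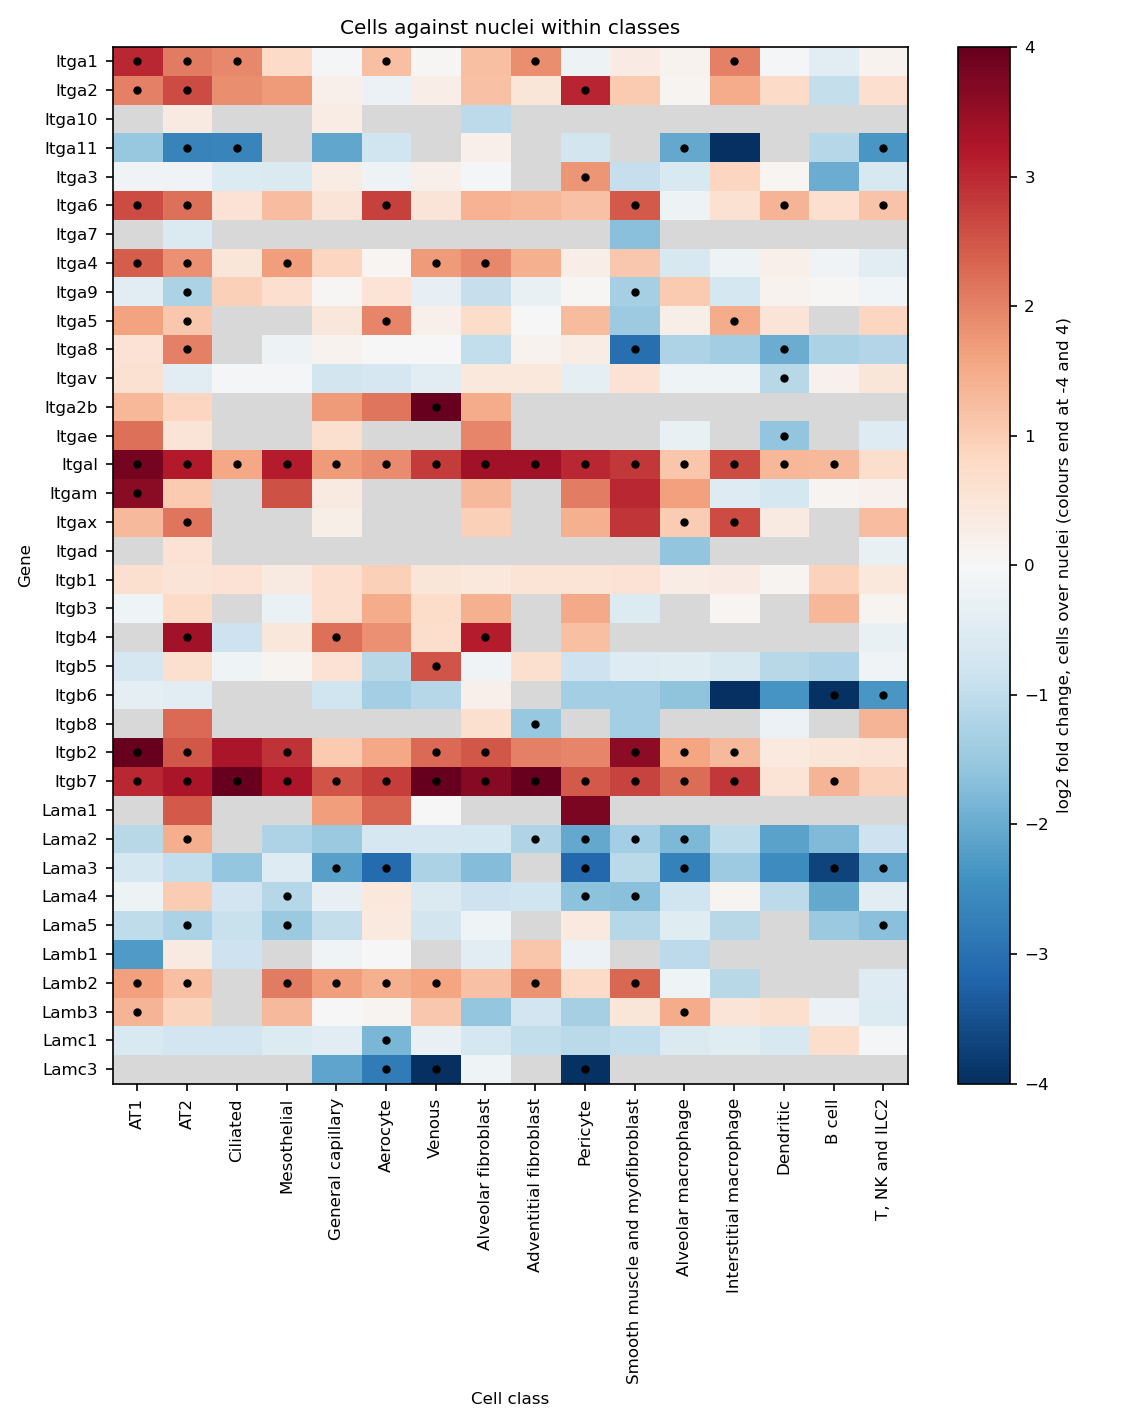
Log2 fold change of cells over nuclei for genes of the module (rows) in each of the 16 classes (columns), with calls at adjusted p under 0.05 marked by a dot and genes not tested in a class in grey. Itgal and Itgb7 are higher across nearly all classes, and Lama2, Lama3 and Lama4 are lower in several.

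Itga8 moved in opposite directions in different classes. In AT2 cells it was at 105, 22.96 and 28.8 scaled CPM (log2 fold change 2.02, SE 0.31, adjusted p = 0.000612). In smooth muscle and myofibroblasts it was at 95.6, 1108 and 433 scaled CPM (log2 fold change -3.02, SE 0.52, adjusted p = 3.38e-07, -2.24 without nuclei 1). In dendritic cells it was also lower, at 41.9, 157 and 175 scaled CPM (log2 fold change -1.98, SE 0.46, adjusted p = 0.000414). The mix of dendritic subsets differed between cells and nuclei, as given above, and its part in this call was not tested. The fitted difference between AT2 cells and smooth muscle and myofibroblasts was 5.09 on the log2 scale. These classes were chosen for their opposite calls, so this is a description with no test. Within the smooth muscle and myofibroblast class, the cluster led by Acta2 and Myh11 held 221, 1868 and 908 CPM and the cluster led by Hhip 28.8, 58.5 and 48.6 CPM, and the Acta2 cluster was the higher in every library. That cluster was 52 of the 175 cells of the class and 58 of 119 and 31 of 77 nuclei. Lama2 also had opposite calls. In AT2 cells it was at 53.6, 17.5 and 21.6 scaled CPM (log2 fold change 1.45, SE 0.34, adjusted p = 0.00681), and in adventitial fibroblasts it was lower, as given above. The fitted difference was 2.88 on the log2 scale, again for classes chosen by their calls.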

How the data were processed

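The deposited tables hold whole-number counts of transcripts (UMIs) per gene and barcode, per the file headers. The aligner was STAR 2.5.3a and the build mm10, per the submitters' processing notes. For the counting program, the annotation, the use of introns and the strand setting, the sources used here give nothing. The tables hold 22588 and 22640 genes for cells and nuclei, and the 21507 shared genes were used (the 1081 and 1133 unshared genes held 0.0392% and 0.0228% of all counts).

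A barcode was kept if it had 400 genes or more and a mitochondrial share below 20%. Scrublet marked 10, 81 and 9 barcodes of the cells, nuclei 1 and nuclei 2 as doublets. The 81 (1.18%) were removed, while the calls of 0.0838% and 0.0918% fell under the minimum of 0.5% at which the caller was taken to work, so doublets remain in those libraries. Cells and nuclei were clustered apart with scanpy 1.11.5 (2000 variable genes without the module's members, 30 components, 20 neighbours, Leiden resolution 1). Clusters were named from marker lists where at least 3 markers were 2-fold higher and in 10% of barcodes. A cluster that showed another lineage's markers was set aside as mixed (7.00%, 0.0296% and 0.316% of barcodes), by limits tightened after the data were seen, and 0, 3.27% and 4.10% stayed unnamed.

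Counts were summed per library, or per library and class with at least 50 barcodes in every library, and tested with edgeR 4.0.16 (quasi-likelihood, TMM, filterByExpr) under R 4.3.3, with Benjamini-Hochberg adjustment over all genes tested, or within the class, and a threshold of 0.05. Every adjusted p in the report is from edgeR unless DESeq2 (1.42.0) is named. An interaction was fitted for the 2 genes called higher in 1 class and lower in another, and its value is given with no p because the calls chose the classes. The tests were tried on simulated data first. Alternatives were RLE factors, DESeq2, no filter, each nucleus library left out, all deposited barcodes, other clusterings, and other thinning depths. Genes were given in full where called in a comparison or at a mean of 50 CPM or more in the leading class, and up to 4 genes per direction from each of the 4 pathway lists by the smallest adjusted p. Results of 1 member, which the counts over the module include, are not reported here. The members and the lists were chosen with earlier results of these data known. Positions and overlaps are from GENCODE M21 (GRCm38) and promoter sequences from RefSeq (GRCm38.p6).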

Additional observations from a re-analysis of the deposited data

Results flagged for a closer look

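Itga8 was called higher in the cells in AT2 cells and lower in the class of smooth muscle and myofibroblasts. Itga8 was at 105, 22.96 and 28.8 scaled CPM in AT2 cells and at 95.6, 1108 and 433 scaled CPM in smooth muscle and myofibroblasts, in the cells, nuclei 1 and nuclei 2. The difference between the log2 fold changes was 5.09 on the log2 scale. The gene and the classes were chosen for these opposite calls, so the difference between them was not tested on independent data and no p is given. The AT2 nuclei formed clusters held almost wholly by 1 library each, and the share of the Acta2 cluster in the other class differed between the libraries. The part of either in the result was not tested.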

How the results depend on the processing

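No paired analysis was possible because the cells have 1 library, so the groups share fewer than 2 replicate numbers. The median log2 fold change of the module over whole libraries was near 0 and changed sign with small changes: it was 0.0075 with no filter on low counts and ran from -0.28 to 0.057 with 1 nucleus library left out, nuclei 1 giving the higher value. DESeq2 called 10 members lower over whole libraries, against 4 with edgeR, and 10 of its 16 calls were shared with the 11 of edgeR. Within classes DESeq2 called 26 higher and 8 lower, against 82 and 34, and kept 34 of the 116 calls, with 15 not tested. The share of all genes that DESeq2 called was not recorded, so its counts of members cannot be read against a background. The cause was not tested. RLE factors, no filter, all deposited barcodes and other clusterings gave counts within 1.5 times of those reported. Of 232 refits of the 116 calls within classes with 1 nucleus library left out, 226 gave a value, 0 of these turned the sign, and 37 of the calls moved by more than 1.5 times in at least 1 refit. The leading class was the same for 36 of 37 genes when members were allowed among the variable genes and for 37 of 37 at resolution 2. The median ratio of co-detection to its product was 1.07 at 500 UMIs and 1.02 at 2000. With 1 library of cells and 1 residual degree of freedom, small differences were not detectable.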

Other observations

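Some classes reached 50 barcodes in only some of the libraries and belong in no comparison. Neutrophils (162 cells) held Itgal at 809 CPM, Itgam at 362 CPM and Itgb2 at 417 CPM. Plasma cells (236 cells) held Itga4, the chain of receptors for Vcam1, at 783 CPM and its partner Itgb7 at 181 CPM. Monocytes (1123 cells and 203 nuclei of nuclei 2) held Itgal at 735 and 304 CPM. The cells were 815 classical and 308 non-classical monocytes and the nuclei non-classical alone, so these levels are of different mixes. In arterial nuclei (144 and 273) Lama3 was at 142 and 214 CPM, and in club nuclei (138 and 999) Lama5 was at 101 and 119 CPM. Lymphatic cells (69) and the lymphatic nuclei of nuclei 2 (64) held Lama4 at 506 and 1394 CPM.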
